A study of Mus musculus with 6 samples.

Results

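The transforming growth factor beta (TGF-beta) genes described here are 9 genes picked by name from the 53379 annotated genes of the count table. The choice was made with earlier results of these data known. They are the ligands Tgfb1 and Tgfb2, the receptors Tgfbr1 and Tgfbr2, the signal transducers Smad2, Smad3 and Smad4, the inhibitory Smad7, and Skil, which encodes the SMAD corepressor SnoN. All 9 were found once by symbol, and all 9 were among the 14537 genes with enough counts to be tested. RNA-seq libraries were made from total RNA of 6 mouse pancreatic tumour organoid cultures, in which tumour epithelium grows inside a drop of matrigel. The tumours arose in C57/Bl6 KPC mice, and every culture carries Pdx1-Cre, so that Cre made under the Pdx1 promoter of pancreatic epithelium switches on the alleles behind a LSL stop cassette. The heterozygous group (n = 3) is labelled Trp53LSLR172H/+ and keeps a wild-type Trp53 allele beside R172H. The group with loss of heterozygosity (LOH, n = 3) is labelled Trp53LSLR172H/- in the genotype field. Each of the organoid lines 6, 23 and 34 gave 1 library per genotype, so a group is 3 lines with 1 culture each. In their descriptions, the 3 LOH libraries have an added suffix that no label explains, and whatever it stands for cannot be told apart from the genotype. No label says whether the cultures of a group were grown in parallel, and the p-values measure the spread between these libraries.

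TGF-beta ligands are secreted in a latent complex with their propeptide, often tethered to the matrix by latent TGF-beta binding proteins. Once freed, a ligand binds the type II receptor TGFBR2, which recruits and phosphorylates the type I receptor TGFBR1. TGFBR1 phosphorylates SMAD2 and SMAD3, which join SMAD4, enter the nucleus and switch genes on or off, among them Smad7 and Skil, whose products dampen the pathway. In pancreatic epithelium the pathway is known for restraining growth early in tumour formation and for driving epithelial-mesenchymal transition and matrix production later, and SMAD4 is often lost in the human disease. The labels name the culture medium without its composition. Recipes in common use for mouse pancreatic organoids include an inhibitor of TGFBR1 and its relatives and the BMP antagonist Noggin, and whether these cultures received them is not given in the sources used here.

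Total expected counts, the authors' estimated read counts per library, ran from 13680458 to 27917277, and the totals of the groups overlapped. Levels are given as CPM, counts scaled by TMM to a common library size, in which a count of 3 corresponded to 0.1 to 0.223 CPM. Genes of the protein-coding table took 67.9% to 73.3% of the counts in the heterozygous and 61.4% to 67.2% in the LOH libraries. Trp53 itself, the gene that defines the groups, stood at 77.3, 76.3 and 86.5 CPM in heterozygous lines 6, 23 and 34 and at 73.5, 52.5 and 47.4 CPM in LOH lines 6, 23 and 34, with an edgeR adjusted p of 0.227. These counts add transcripts of the R172H and wild-type alleles together. The 8 epithelial markers summed to 5176 to 11407 CPM per library. Fibroblast markers stayed under 1 CPM in each library (11 of 11 genes), and their sum was 0.0742 to 0.167 CPM in heterozygous and 0.605 to 1.16 CPM in LOH libraries. Col3a1 and Thy1 had no count in any library. Of 10 leukocyte markers, 7 stayed under 1 CPM, the pan-leukocyte gene Ptprc among them with at most 0.264 CPM, while Cd68, Cd14 and Ly6g exceeded it. Their sum was 46.3 to 51.4 CPM in heterozygous and 32.4 to 166 CPM in LOH libraries, of which Ly6g took 119 CPM in LOH line 34. Of 6 endothelial markers, 5 stayed under 1 CPM, and Tek reached 2.5 CPM in LOH line 6.

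Of the 9 genes, Tgfb1 alone differed between the genotypes past the threshold, an adjusted p of 0.05 in the quasi-likelihood test of edgeR over all genes tested. It rose in the LOH libraries. That is 1 of 9, where 5.21% of all tested genes passed in either direction and 3.55% as higher. Only for Tgfb1 did the 3 libraries of the 2 groups not overlap, which held for 32.8% of all tested genes. The median log2 fold change of the 9 genes was 0.07, and that of all genes tested was 0.06. With the organoid line as a block, edgeR called 0 of the 9, and 1.47% of all genes. At an unadjusted p under 0.05 there were 2 of the 9 without the block, Tgfb1 and Skil, against 25.3% of all genes, and DESeq2 called 1, Tgfb1, against 15.8% of all genes (9.56% as higher and 6.19% as lower).

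**Figure D1:**
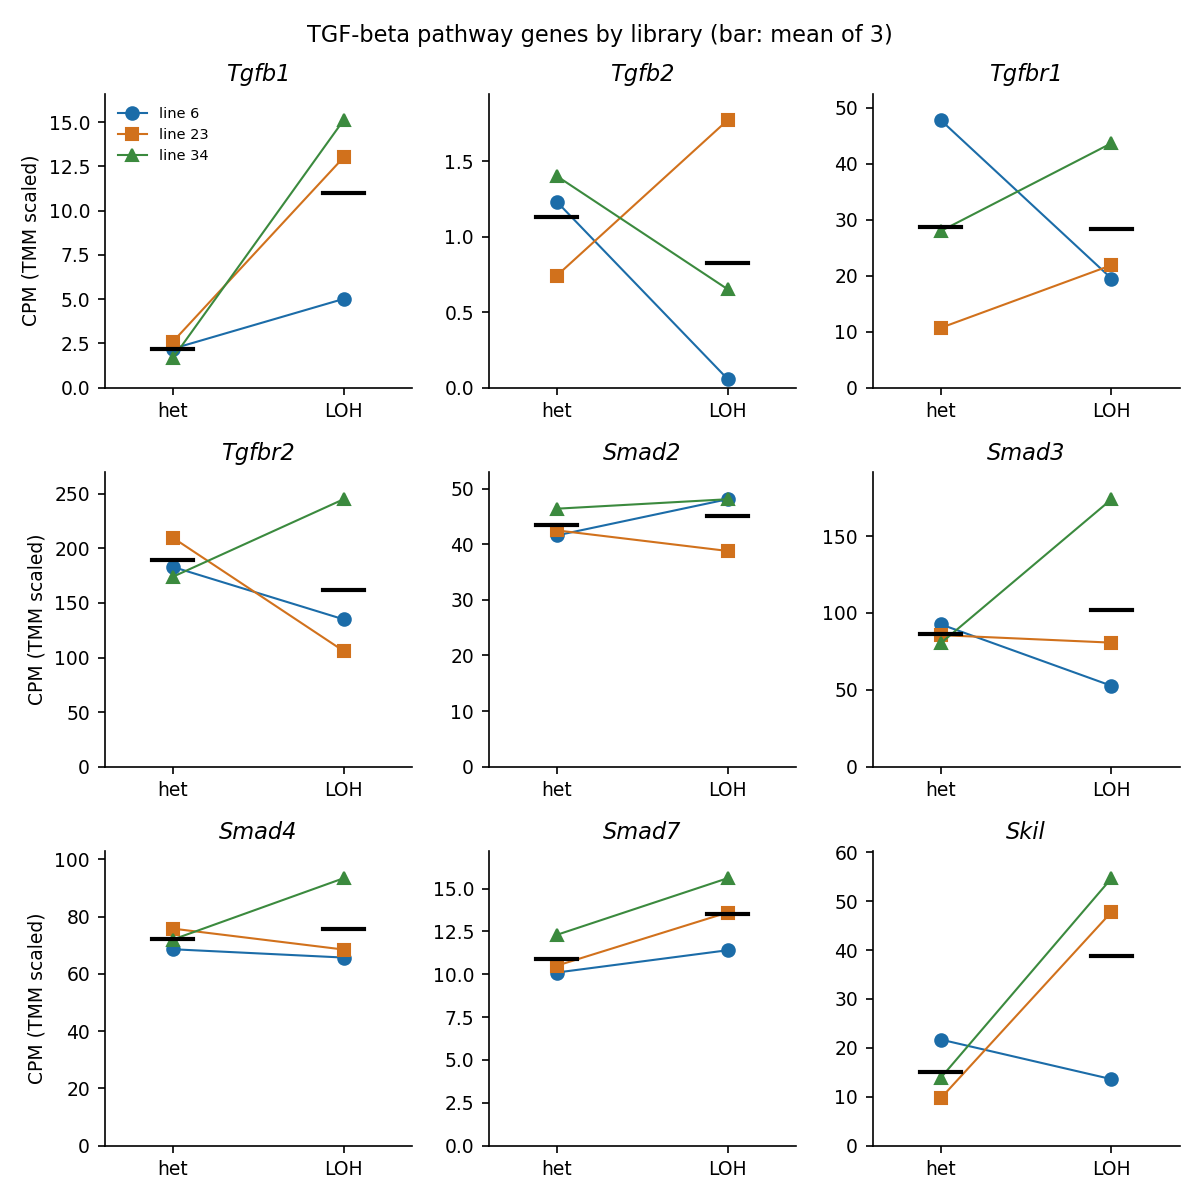
CPM of the 9 genes in each library, with heterozygous (het) on the left and LOH on the right of each panel, 1 line and symbol per organoid line and a black bar at each group's mean (n = 3). Tgfb1 is higher in LOH in each line, from 5.01 to 15.1 CPM against 1.67 to 2.6 CPM, while in the other panels the groups overlap.

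Tgfb1 encodes the ligand that is most widely made in the body and that is produced by epithelial cells and leukocytes alike. Tgfb1 (ENSMUSG00000002603.15; chromosome 7, 25687002 to 25705077, plus strand, GRCm38) was counted 66, 35 and 50 times in heterozygous lines 6, 23 and 34, or 2.2, 2.6 and 1.67 CPM. The LOH libraries of the same lines had 5.01, 13 and 15.1 CPM, from 86, 344 and 324 counts. Every LOH library was above every heterozygous one, with line 6 the lowest of the LOH libraries. The means were 2.16 ± 0.466 and 11 ± 5.32 CPM (SD, n = 3 each), a ratio of 5.11. The log2 fold change was 2.36 (SE 0.46, 95% interval 1.28 to 3.45, edgeR adjusted p 0.0374). Permuting the libraries' genotypes in an exact two-sided test gave p = 0.1, and 3 against 3 libraries cannot go below that. Groups of 3 that do not overlap always give this p, so it adds nothing to the lack of overlap. Within lines 6, 23 and 34 the log2 ratios were 1.15, 2.28 and 3.11.

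The Tgfb1 difference kept its direction and its size, within 1.91 to 2.71, in every count-based alternative, but its adjusted p did not stay under 0.05 in all of them. It was 0.0976 with the organoid line as a block, 0.144 to 0.189 without 1 of the heterozygous libraries, 0.0798 without LOH line 23 and 0.0622 without LOH line 34, all by edgeR. Leaving out both libraries of line 23 or of line 34 gave 0.23 and 0.242. DESeq2 gave an adjusted p of 5.02e-05. With the protein-coding table alone the log2 fold change was again 2.36 (edgeR adjusted p 0.0348). Leukocytes also make Tgfb1. The leukocyte marker sum was highest in LOH line 34, at 166 CPM, of which Ly6g took 119 CPM. The common leukocyte marker Ptprc was at most 0.264 CPM in any library. Cd68, a macrophage marker, had 1.7, 1.78 and 1.84 CPM in heterozygous lines 6, 23 and 34 and 2.97, 6.95 and 14.7 CPM in the same lines with LOH. Its log2 fold change was 2.21 (edgeR adjusted p 0.0713, DESeq2 adjusted p 0.00307), and like Tgfb1 it was higher in LOH in each line, with ratios of 0.77, 1.91 and 2.94 on the log2 scale. Cd14, a monocyte marker, had a log2 fold change of -0.56 (edgeR adjusted p 0.252). Of the other leukocyte markers, Adgre1 and Lyz2 had no count in any library, and Itgam had at most 0.175 CPM. Csf1r had 0.534, 0.148 and 0.1 CPM in heterozygous and 0.0582, 0.302 and 0.0931 CPM in LOH lines 6, 23 and 34. The part of these markers' cells in the Tgfb1 difference was not tested. In bulk RNA, more cells with a transcript and more of it per cell cannot be told apart.

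The Tgfb2 ligand is best known from development, and its transcript was scarce here. Tgfb2 (ENSMUSG00000039239.14; chromosome 1, 186622792 to 186705989, minus strand, with Gm26169 and Gm29491 on the opposite strand) was counted 37, 10 and 42 times in heterozygous lines 6, 23 and 34 (1.23, 0.742 and 1.4 CPM). In the LOH libraries it had 1 count in line 6 (0.0582 CPM), 47 in line 23 (1.77 CPM) and 14 in line 34 (0.652 CPM). The groups overlapped, and LOH line 23 was the highest of all 6 libraries and LOH line 6 the lowest. The fitted log2 fold change was -0.43 (SE 0.88, 95% interval -2.50 to 1.65, edgeR adjusted p 0.789). The ratios of LOH to heterozygous CPM within lines 6, 23 and 34 were 0.0472, 2.39 and 0.465. The exact 95% intervals of these ratios were 0.00116 to 0.28, 1.19 to 5.31 and 0.235 to 0.869, which cover no more than counting error.

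The 250 bases before the RefSeq start of these ligand genes are shown because the genes differ in level and in whether they passed the test. The sequences come from the RefSeq promoter table (build GRCm38.p6), in which 5 of the 9 genes had an entry under their symbol. Each runs 5′ to 3′ on its gene's own strand, from chr7:25686752-25687001 (plus) and chr1:186705990-186706239 (minus). Capitals mark matches on either strand to the GC box CCGCCC, the SMAD box CAGAC, the TATA box TATAAA and the E-box CACGTG. The AP-1 site TGACTCA was searched too, and it was in neither window.
Tgfb1: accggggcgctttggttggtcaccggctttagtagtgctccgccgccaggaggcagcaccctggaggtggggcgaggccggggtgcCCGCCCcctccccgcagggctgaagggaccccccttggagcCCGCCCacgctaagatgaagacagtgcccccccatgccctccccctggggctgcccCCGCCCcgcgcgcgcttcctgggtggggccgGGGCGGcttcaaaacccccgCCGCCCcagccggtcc
Tgfb2: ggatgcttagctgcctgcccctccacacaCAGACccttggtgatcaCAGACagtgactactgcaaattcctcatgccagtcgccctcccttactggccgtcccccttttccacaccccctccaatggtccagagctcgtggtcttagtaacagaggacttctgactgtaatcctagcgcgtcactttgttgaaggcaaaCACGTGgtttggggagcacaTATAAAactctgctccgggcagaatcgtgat
The Tgfb1 window was 75.2% G and C and held 5 GC boxes, at 164, 123, 67, 36 and 16 bases before the start. It held none of the other motifs. The Tgfb2 window was 53.6% G and C, near the median of 52.4% over all windows in the table, and held no GC box. It held a TATA box at 31 bases, an E-box at 51 bases and SMAD boxes at 204 and 221 bases before the start. Of 32851 windows of the same length, 32.7% held a GC box, 42.2% a SMAD box, 12.4% a TATA box, 6.02% an E-box and 4.46% an AP-1 site. These matches are letters in a window and not sites shown to be bound.

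Set beside the remaining ligand of the family, Tgfb1 made up a larger part of the ligand transcripts in each LOH library than in any heterozygous one. Tgfb3, which encodes that ligand and was chosen for this after its values had been seen, stood at 50.7, 48.4 and 38.9 CPM in heterozygous lines 6, 23 and 34 and at 6.05, 12.9 and 22.6 CPM in the LOH libraries of these lines. Its log2 fold change was -1.73 (SE 0.45), with an edgeR adjusted p of 0.0711 and a DESeq2 adjusted p of 0.00266. Levels of different genes were compared as TPM, the authors' length-scaled transcript abundances. Of the TPM of the 3 ligands, Tgfb1 took 6.28%, 8.07% and 6.25% in heterozygous lines 6, 23 and 34, and 56.3%, 57.3% and 51.3% in the same lines with LOH. Tgfb3 took 91.9%, 90.9% and 90.9% in the former and 43.5%, 35.6% and 47.8% in the latter. The share of Tgfb1 was thus 6.87% ± 1.04 in heterozygous and 55% ± 3.19 in LOH libraries (SD, n = 3 each), with no overlap. Its exact two-sided permutation p was 0.1, the smallest possible. Groups of 3 that do not overlap always give this p, so it adds nothing to the lack of overlap. Tgfb2 took 1.05% to 2.85% in heterozygous libraries, and its share was 0.246%, 7.06% and 0.866% in LOH lines 6, 23 and 34. The summed TPM of the 3 ligands was 22, 17.1 and 14.4 in heterozygous and 4.07, 9.63 and 11.5 in LOH libraries. The TPM scale lowers LOH levels as a whole, with a median log2 fold change of -0.42 over the genes tested with log2(TPM + 0.1). These sums were therefore not compared between the genotypes.

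**Figure D2:**
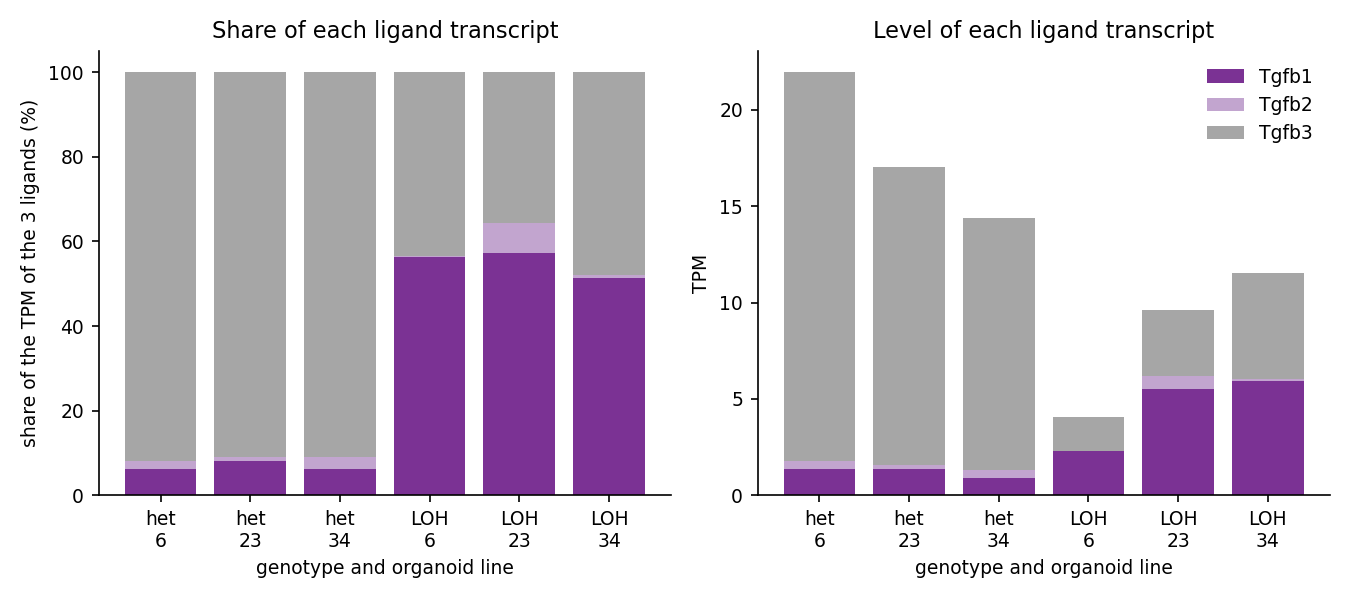
TPM of Tgfb1, Tgfb2 and Tgfb3 in each library, as stacked shares of their sum in percent (left) and as stacked TPM (right), for heterozygous (het) and LOH libraries of lines 6, 23 and 34. Tgfb1 takes 6.25% to 8.07% of the sum in heterozygous and 51.3% to 57.3% in LOH libraries. The right panel is to be read within a genotype, because the TPM scale lowers LOH levels as a whole.

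Neither receptor passed the test, and both had log2 ratios of different sign in the 3 lines. Tgfbr1, the type I receptor whose kinase phosphorylates SMAD2 and SMAD3 (ENSMUSG00000007613.15; chromosome 4, 47353222 to 47414931, plus strand), had 47.8, 10.7 and 28 CPM in the heterozygous and 19.5, 21.9 and 43.7 CPM in the LOH libraries of lines 6, 23 and 34. Heterozygous line 6 was the highest and heterozygous line 23 the lowest of the 6. Its log2 fold change was -0.03 (SE 0.55, 95% interval -1.32 to 1.27, edgeR adjusted p 0.982), from log2 ratios of -1.29, 1.03 and 0.64 in the lines.

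Tgfbr2, the ligand-binding type II receptor (ENSMUSG00000032440.13; chromosome 9, 116084293 to 116175360, minus strand), had 183, 209.7 and 174 CPM in the heterozygous and 135, 106 and 245 CPM in the LOH libraries of lines 6, 23 and 34. The heterozygous libraries lay close together, while the LOH libraries lay on both sides of them. Over the groups, the log2 fold change was -0.22 (SE 0.32, 95% interval -0.97 to 0.53, edgeR adjusted p 0.691). Lines 6, 23 and 34 had -0.44, -0.98 and 0.49, and without LOH line 23 the fitted value was 0.01.

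Of the transducers, Smad2 and Smad4 varied least over the 6 libraries, and Smad3 varied among the LOH libraries. Smad2, one of the SMADs that receptors phosphorylate (ENSMUSG00000024563.15; chromosome 18, 76241580 to 76310963, plus strand), had 41.6, 42.5 and 46.4 CPM in heterozygous and 48.1, 38.8 and 48.1 CPM in LOH libraries. Its groups overlapped, and the log2 fold change was 0.05 (SE 0.18, 95% interval -0.37 to 0.47, edgeR adjusted p 0.886). Smad4, the partner that all receptor-activated SMADs share (ENSMUSG00000024515.13; chromosome 18, 73639009 to 73703780, minus strand, with AC132418.2 on the opposite strand), had 68.6, 75.8 and 72 CPM in heterozygous and 65.7, 68.5 and 93.4 CPM in LOH libraries. No library was near 0 for Smad4, the lowest having 1022 counts. Its groups overlapped as well (log2 fold change 0.07, SE 0.20, 95% interval -0.39 to 0.54, edgeR adjusted p 0.844).

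Smad3 encodes the phosphorylated SMAD that binds DNA itself (ENSMUSG00000032402.12; chromosome 9, 63646767 to 63757994, minus strand). It had 92.6, 85.6 and 80.4 CPM in the heterozygous and 52.6, 80.7 and 174 CPM in the LOH libraries of lines 6, 23 and 34. LOH line 34 was the highest and LOH line 6 the lowest of the 6, with the heterozygous libraries between them. The SD was 6.09 CPM among heterozygous and 63.3 CPM among LOH libraries. Its log2 fold change was 0.25 (SE 0.41, 95% interval -0.73 to 1.22, edgeR adjusted p 0.737), and it was -0.37 without LOH line 34.

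Of the 2 feedback inhibitors, neither passed over all genes. Smad7, which blocks the receptors and marks them for degradation (ENSMUSG00000025880.11; chromosome 18, 75367529 to 75395935, plus strand), had 10.1, 10.5 and 12.3 CPM in the heterozygous and 11.4, 13.6 and 15.6 CPM in the LOH libraries of lines 6, 23 and 34. It was slightly higher in LOH in each line, and the groups overlapped because LOH line 6 lay below heterozygous line 34. The log2 fold change was 0.31 (SE 0.22, 95% interval -0.22 to 0.83, edgeR adjusted p 0.418).

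Skil (ENSMUSG00000027660.16; chromosome 3, 31095058 to 31122577, plus strand) had 21.7, 9.72 and 13.9 CPM in the heterozygous and 13.6, 47.8 and 54.7 CPM in the LOH libraries of lines 6, 23 and 34. LOH lines 23 and 34 stood above the other 4 libraries, and LOH line 6 lay among the heterozygous ones. Group means were 15.1 ± 6.07 CPM without and 38.7 ± 22 CPM with LOH (SD, n = 3 each). The fitted log2 fold change was 1.35 (SE 0.54, 95% interval 0.09 to 2.62), with an unadjusted p of 0.039 and an edgeR adjusted p of 0.173. The log2 ratios were -0.67, 2.29 and 1.97 in the lines. When LOH line 6 was left out, the fold change was 1.71 on the log2 scale (edgeR adjusted p 0.0314). With its heterozygous partner left out too it was 2.08 (edgeR adjusted p 0.0389), so the call depended on that line.

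**Figure D3:**
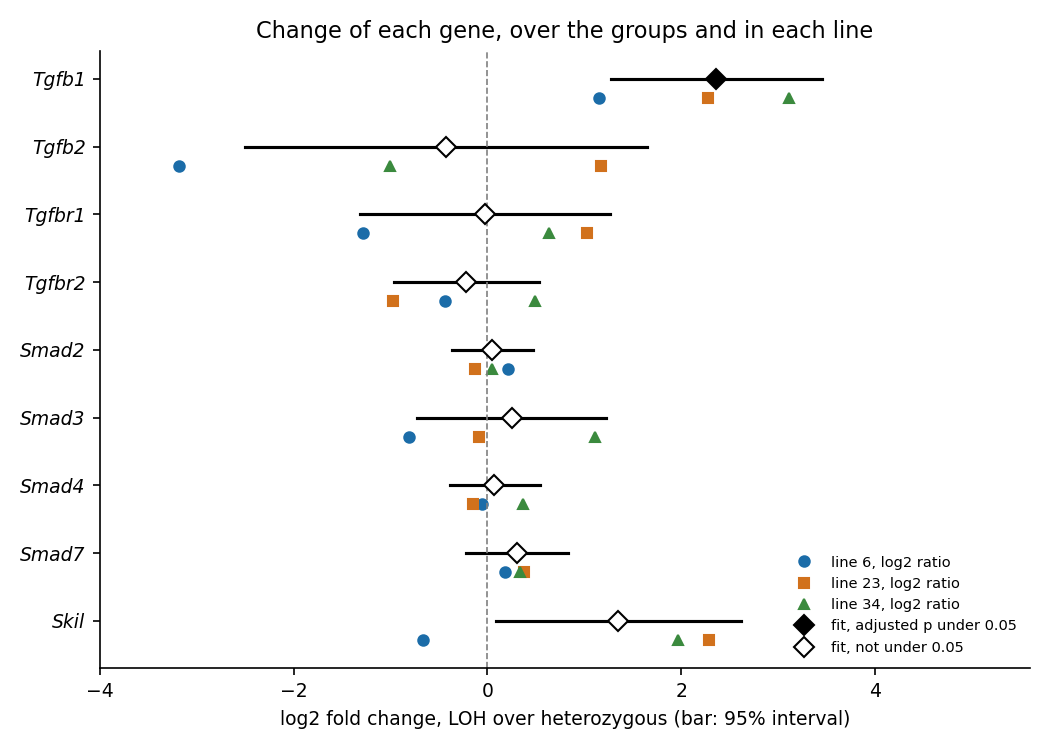
Log2 fold change of LOH over heterozygous libraries for the 9 genes, with the fitted value (diamond, filled where the edgeR adjusted p is under 0.05), its 95% interval (bar) and the log2 ratio in each organoid line (coloured symbols). Tgfb1 lies at 2.36 with its 3 lines above 0, and Skil at 1.35 with line 6 below 0.

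Ranked by TPM within the heterozygous libraries, Tgfbr2 stood first at 44.7 ± 4.5 TPM (SD, n = 3), above Smad4 at 25.9 ± 1.79, Smad2 at 25.9 ± 1.29 and Smad3 at 23.1 ± 3.13 TPM. These 3 SMADs overlapped one another, but neither Tgfbr2 above them nor Tgfbr1 below them. Then came Tgfbr1 at 6.78 ± 4.79, Smad7 at 4.2 ± 0.965 and Skil at 3.99 ± 1.81 TPM, which overlapped too. Tgfb1 at 1.22 ± 0.277 and Tgfb2 at 0.327 ± 0.127 TPM closed the list without overlapping a neighbour. In the LOH libraries the order was Tgfbr2 (29.2 ± 11.2 TPM), Smad3 (21.7 ± 14.1), Smad4 (21.4 ± 2.14), Smad2 (19.5 ± 4.92), Skil (6.29 ± 2.72), Tgfbr1 (4.61 ± 1.78), Tgfb1 (4.58 ± 1.99), Smad7 (4.08 ± 0.58) and Tgfb2 (0.263 ± 0.364 TPM). There the gaps without overlap were between Smad2 and Skil and between Smad7 and Tgfb2. Tgfb1 thus lay below Smad7 in the heterozygous libraries and overlapped it in the LOH libraries. The TPM scale lowers LOH levels as a whole, by a median of 0.42 on the log2 scale over the genes tested on it with log2(TPM + 0.1), so levels were ranked only within a genotype.

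Transcript shares were taken from the authors' isoform percentages, which rest on how RSEM divides shared reads, and are described without a test. For Tgfb1 the full-length coding transcript Tgfb1-201 took 85.2% to 96.6% of the gene's TPM in each library. Tgfbr2 was split between its 2 coding transcripts in near constant proportion, with Tgfbr2-201 at 65.5% to 72.3% in all 6 libraries. Smad4-201 took 95.3% ± 2.16 in heterozygous and 83.3% ± 6.49 in LOH libraries (SD, n = 3 each), and the shorter coding transcript Smad4-202 took 7.15%, 0% and 1.56% in the former and 23.5%, 14.7% and 10.6% in the latter. Of the 27 transcripts of the 9 genes with at least 10% in any library, 3 had shares that did not overlap between the groups, these 2 and Tgfb2-206, or 11.1%, near the 10.9% of 32151 such transcripts over all tested genes with at least 2 of them. For Skil, the long transcript Skil-204 took 36.3% to 47.3% in heterozygous libraries and 42.9%, 63.8% and 62.7% in LOH lines 6, 23 and 34. Its share was thus highest in the LOH libraries in which the gene was highest. Smad3-201 took 69.8% to 89.1%, with its lowest share in LOH line 34, where the 744-base Smad3-205 was given 29.8%. Tgfb2 shares, with 1 to 47 reads of the gene per library, rest on too few reads to be compared.

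Smad2, Smad4 and Smad7 lie on chromosome 18, where 334 other genes were tested. Its median log2 ratios, taken without Smad2, were -0.04, 0.19 and 0.21 in lines 6, 23 and 34, against -0.01, 0.03 and 0.06 over all genes tested. Smad7 had 0.18, 0.38 and 0.34 in these lines. Chromosome 7, with Tgfb1, had medians of -0.10, -0.36 and 0.05, and the 20 tested genes nearest Tgfb1 had 0.03, -0.31 and 0.17, where Tgfb1 had 1.15, 2.28 and 3.11. Around Skil on chromosome 3 the chromosome medians were 0.18, 0.29 and 0.26 and those of the 20 nearest genes 0.05, 0.68 and 0.10. Skil itself had -0.67, 2.29 and 1.97. Medians over many genes vary less than the ratio of a single gene, so these values are set side by side only as a description.

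The rest of the pathway was followed through 96 genes in 7 lists by role, chosen with earlier results of these data known. Of the 96, 73 were tested. Of these 73, 3 rose and 2 fell in LOH libraries, against 3.55% and 1.66% of all genes tested, and the median log2 fold change was 0.18. Among the 3 was Ltbp2, which entered the test only through the LOH libraries, in which it was high. With the organoid line as a block edgeR called 1 of the 73 as higher, Bmp2, against 1.22% of all genes. It called 0 as lower, against 0.248%. DESeq2 called 11 higher and 8 lower, against 9.56% and 6.19% of all genes. Leaving out any 1 heterozygous library left edgeR with 0 calls over all genes, and so with none of these 5.

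Among genes for ligands and their activation, 1 of 8 tested rose, against 3.55% of all genes tested. It was Ltbp2, a matrix protein of the latent TGF-beta binding family that, unlike its relatives, is not known to bind the latent ligand. It had 6, 2 and 1 counts in the heterozygous and 19, 46 and 49 in the LOH libraries of lines 6, 23 and 34, or 0.127 ± 0.0854 and 1.71 ± 0.588 CPM (SD, n = 3 each; edgeR adjusted p 0.0313, 0.0997 with the block). It reached the cutoff of the count filter in 0 heterozygous and 3 LOH libraries, so it entered the test only through the group in which it was high and could not be tested with at least 10 counts in every library. The relatives that do bind the latent ligand were named after their values were seen, and none of them passed in edgeR. Ltbp1, Ltbp3 and Ltbp4 had log2 fold changes of 2.61, 1.57 and 1.29 with edgeR adjusted p-values of 0.118, 0.0867 and 0.0952. Their DESeq2 adjusted p-values were 0.00967, 0.008 and 0.0446, where DESeq2 called 9.56% of all genes higher. The groups overlapped for Ltbp1 and Ltbp3. Of the 8 genes, 6 had a log2 fold change above 0, as did 54% of all genes tested.

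Among receptors and co-receptors 1 of 9 tested rose, against 3.55% of all genes tested. It was Tgfbr3, which encodes betaglycan, a co-receptor that presents ligand to TGFBR2. It had 7, 6 and 12 counts in heterozygous and 20, 98 and 59 in LOH libraries, with means of 0.36 ± 0.112 and 2.54 ± 1.28 CPM (SD, n = 3 each). The difference was 2.83 on the log2 scale (SE 0.57, edgeR adjusted p 0.0399, and 0.0696 in the fit with a block), and the libraries of the groups did not overlap. It reached the cutoff of the count filter in 2 heterozygous and 3 LOH libraries, and could not be tested with at least 10 counts in every library, where 1 pathway gene in place of 3 was called higher. Whether its difference exceeds those of Tgfbr1 and Tgfbr2 was not tested.

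Genes known to be induced by TGF-beta moved in both directions, with a median log2 fold change of 0.56, against 0.06 over all genes tested. By line their median log2 ratio was above 0 only in line 34, with -0.12, -0.20 and 0.63 in lines 6, 23 and 34. Of 17 tested, 1 was higher and 1 lower, against 3.55% and 1.66% of all genes tested. Junb, a transcription factor of the AP-1 family, rose from 59.5, 70.9 and 69.2 CPM in the heterozygous libraries to 116, 119.7 and 183 CPM in the LOH libraries (log2 fold change 1.07, SE 0.23, edgeR adjusted p 0.0474, 0.111 with the block). Ccn1 (Cyr61 in the table), a matrix protein that is also a YAP target, fell from 45.4, 38.9 and 28.4 CPM to 8.67, 18.7 and 10.7 CPM (log2 fold change -1.56, SE 0.34, edgeR adjusted p 0.0481, 0.0925 with the block). The adjusted p-values of Junb and Ccn1 lie just under the threshold.

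Genes known to be induced by bone morphogenetic proteins (BMPs), which signal through the sister SMADs, were tested in 4 cases. Of these, 1 passed the threshold as lower, against 1.66% of all genes, and none did with the block, against 0.248%. All 4 had a log2 fold change below 0, as did 46% of all genes tested, and their median was -1.42. Because the list was chosen with earlier results of these data known, this comparison is a description and no independent support. DESeq2 called 3 of the 4 lower, against 6.19% of all genes. Id3, an inhibitor of helix-loop-helix transcription factors, fell from 40.2, 43.9 and 57.2 CPM to 19.4, 12.2 and 13.8 CPM in lines 6, 23 and 34 (log2 fold change -1.64, SE 0.25, edgeR adjusted p 0.023, 0.0721 with the block). Its relative Id1 had 108, 112 and 134 CPM in heterozygous and 74.7, 27.3 and 52.6 CPM in LOH libraries (edgeR adjusted p 0.0958). Atoh8 had a log2 fold change of -2.27 with an edgeR adjusted p of 0.0677, and was named, like Id1, after its values were seen. Id2, the remaining gene of the 4, had groups that overlapped (edgeR adjusted p 0.323). It stood at 205, 257 and 222 CPM in heterozygous and 91.2, 239.6 and 106 CPM in LOH lines 6, 23 and 34.

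None of the 11 tested activin and BMP ligands and antagonists passed without the block. At an unadjusted p under 0.05 by edgeR there were 4, against 25.3% of all genes. DESeq2 called 3, against 15.8%. The smallest p was that of Bmp4, whose means were 12.3 ± 3.01 CPM without and 5.2 ± 1.72 CPM with LOH (SD, n = 3 each; log2 fold change -1.24, edgeR adjusted p 0.0808). Bmp2, named because it was called with the block, had 0.634, 1.04 and 0.134 CPM in heterozygous and 5.18, 16.4 and 1.4 CPM in LOH libraries of lines 6, 23 and 34. Its block log2 fold change was 3.45 (edgeR adjusted p 0.0358 with the block, 0.085 without). Its heterozygous counts were 19, 14 and 4, and like Tgfbr3 it reached the filter's cutoff in 2 heterozygous and 3 LOH libraries. Of 15 inhibitors and turnover genes edgeR and DESeq2 called 0, with 1 at an unadjusted p under 0.05 in edgeR, Pmepa1 (3.47 ± 0.828 and 1.68 ± 0.221 CPM, SD, n = 3 each; edgeR adjusted p 0.117). Of 9 other SMADs and partners both called 0, with 0 at an unadjusted p under 0.05. The smallest p there was that of Map3k7, the kinase TAK1, at 66.8 ± 5.71 and 46.9 ± 13.1 CPM (SD, n = 3 each; edgeR adjusted p 0.226).

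**Figure D4:**
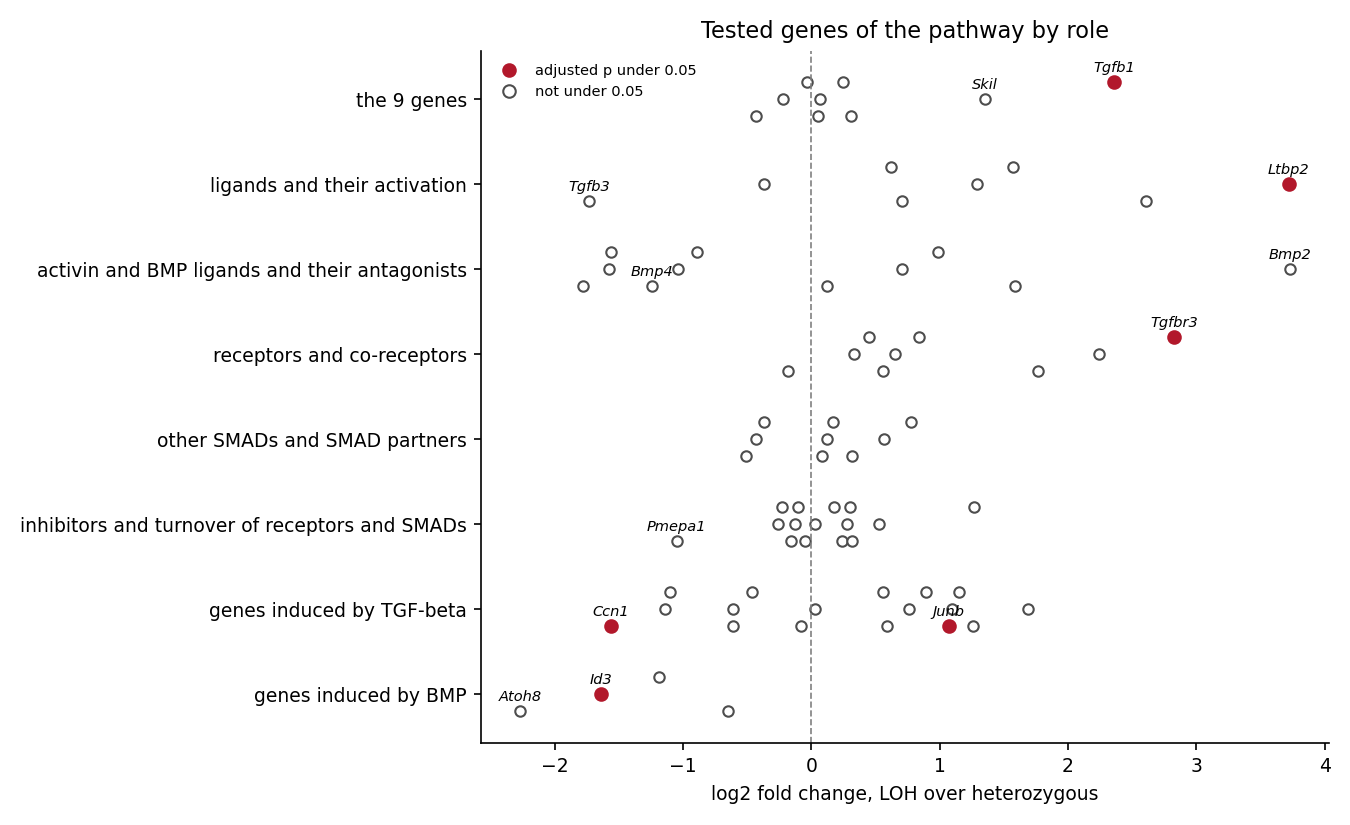
Log2 fold change of LOH over heterozygous libraries for the tested pathway genes, 1 point per gene and 1 row per role (points are staggered within a row for legibility), filled where the edgeR adjusted p is under 0.05. Filled points are Tgfb1 among the 9 genes and Ltbp2, Tgfbr3, Junb, Ccn1 and Id3 among the 73 others, and the 4 genes induced by BMP lie below 0. Ltbp2 entered the test only through the LOH libraries.

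The 3 of the 9 genes that varied most over the 6 libraries were Tgfb2, Tgfb1 and Skil, with SDs of log2 CPM of 1.33, 1.33 and 1.02. Of 10075 candidates averaging 5 CPM or more, those most like Tgfb1 over the 6 libraries were Fam114a1 (Pearson r 0.999), Jak3 (0.997) and Dram2 (0.997). Most like Skil were Zfp68 (0.998), Pcmtd1 (0.995) and Lpgat1 (0.995), and most like Tgfb2 were Gnai1 (0.99), Enah (0.987) and Ttyh3 (0.972). Pcmtd1, for example, had 9.44, 2 and 3.67 CPM in heterozygous and 3.67, 24.6 and 30.8 CPM in LOH libraries, low in LOH line 6 as Skil was. Tgfb2 had 1 count in LOH line 6, where Gnai1, Enah and Ttyh3 were also at their lowest, with 12.2, 22 and 8.79 CPM. How far the correlations with Tgfb2 rest on that library was not tested. These correlations describe 6 libraries that share genotype and line, and each gene named was picked as one of the 3 highest of all candidates.

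**Figure D5:**
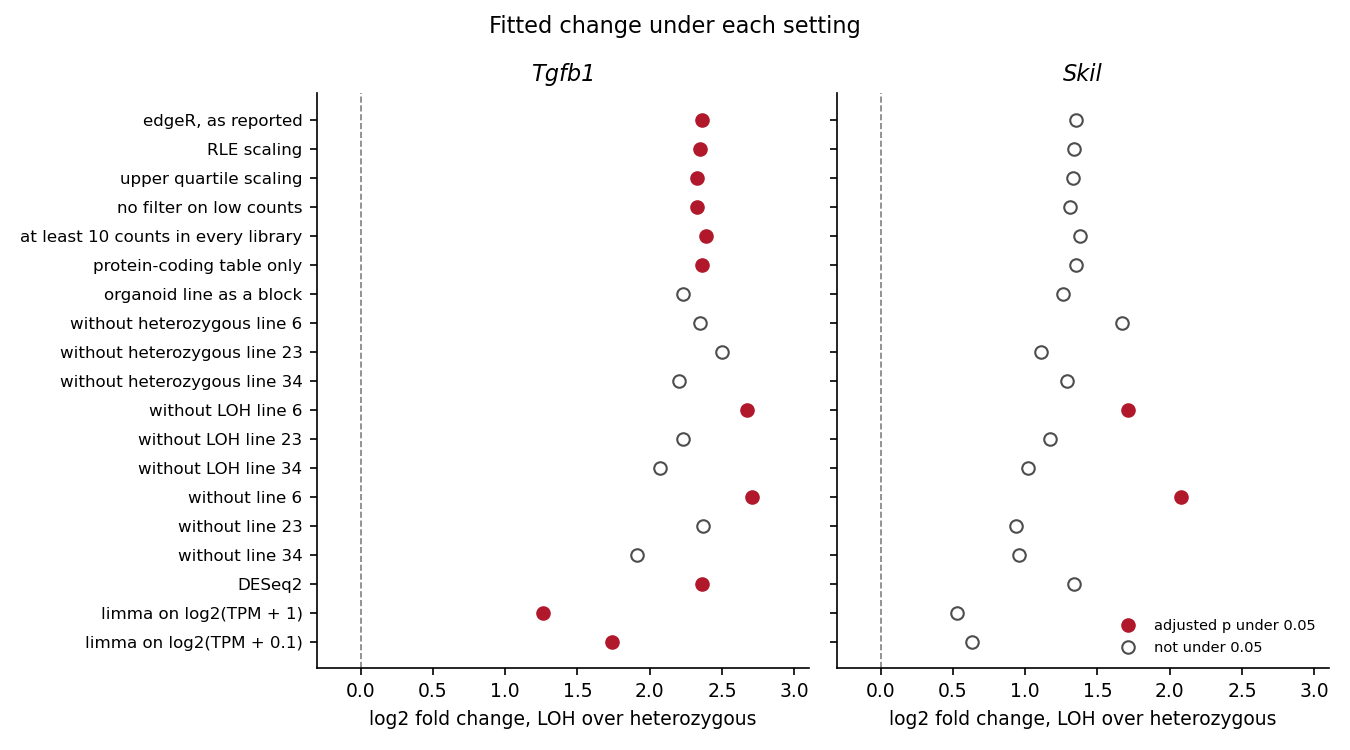
Log2 fold change of Tgfb1 (left) and Skil (right) as reported and under 18 alternatives, filled where the adjusted p is under 0.05. Tgfb1 stays above 0 throughout, from 1.26 to 2.71, and is filled in 11 of 19 rows, while Skil is filled only without LOH line 6 and without line 6.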

How the data were processed

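RNA was sequenced from 6 organoid libraries, 3 heterozygous and 3 LOH, grouped by their titles. The submitters' processing notes name FastQC 0.11.5, STAR 2.5.2b, RSEM 1.3.0, DESeq2 1.44.0 and the build GRCm38.p5 without stating roles, and the strand setting is not given in the sources used here. Per the file headers, the authors deposited expected counts (estimated counts per gene that need not be whole), TPM values, and isoform shares as a percent of each gene's TPM. The deposited normalized table holds a signal, the truncated expected count times 1 factor per library in 100.0% of values above 0 (tolerance 1e-06), and was used only for gene names. The protein-coding version defined that gene set.

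Expected counts were rounded, filtered with filterByExpr, scaled by TMM and tested two-sided by quasi-likelihood F-tests (edgeR 4.0.16, R 4.3.3), with Benjamini-Hochberg adjustment. SEs are the log2 fold change over the square root of F. Log2 CPM used a prior count of 2. As alternatives, scaling was by RLE or the upper quartile, the filter was dropped or raised to 10 counts in every library, and genes were limited to the protein-coding table. The organoid line was also fitted as a block, libraries and lines were left out in turn, and DESeq2 1.42.0 was run. TPM values, plus 1 or plus 0.1, were tested on the log2 scale by limma 3.58.1 where 3 libraries reached a TPM of 1. The fits were tested on simulated data. Coordinates come from GENCODE mouse release 21 (GRCm38), which held 53274 of the 53379 gene identifiers.

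The titles give a heterozygous and an LOH library the same number where both belong to 1 organoid line, so the numbers pair the samples. Across genes, their deviations from the group means correlated at -0.3 in line 6, 0.01 in line 23 and 0.29 in line 34. The fit without the block was kept as the main one because no label states a paired model. That fit ignores the pairing, and neither Tgfb1 nor any pathway gene that it called passed with the block. An allele that both groups share and 1 gene of the lists are not reported here by name. The 9 genes and the lists were chosen with earlier results of these data known. Besides the 9 genes, a list's genes were named by the smallest p among those passing, up to 3 in each direction, or the gene with the smallest p where none passed. For the 3 genes of highest SD the 3 most correlated genes were named. Reads carry no molecular identifiers and can be copies of 1 molecule, so intervals of count ratios describe only the error of counting reads.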

Additional observations from a re-analysis of the deposited data

Results flagged for a closer look

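For these genes, 1 or 2 of the 3 organoid lines had a log2 ratio of LOH to heterozygous above 0 and the rest below 0. With 1 library per genotype in each line, the difference between lines was not tested. From the lowest to the highest of the 3 lines, the log2 ratio spanned 4.36 for Tgfb2, 2.96 for Skil, 2.32 for Tgfbr1, 1.92 for Smad3 and 1.47 for Tgfbr2. It was 0.52 for Smad4 and 0.34 for Smad2. Line 6 was the lowest of the 3 lines for Tgfb2, Skil, Tgfbr1 and Smad3, and line 23 for Tgfbr2, Smad4 and Smad2. Tgfb2 in LOH line 6 rests on 1 count.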

How the results depend on the processing

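Tgfb1 was called in 10 of 18 alternatives and Skil in 2. Leaving out 1 library or line moved the number of the 9 genes called from 1 to between 0 and 2, that of pathway list genes from 3 higher and 2 lower to between 0 and 8 in each direction, and that of all genes from 516 higher and 241 lower to between 0 and 1135 higher and 0 and 1314 lower. Without a heterozygous library, or without line 23 or 34, edgeR called 0 genes, with 2097 to 2966 at an unadjusted p under 0.05. When 1 group is left with 2 libraries, or both are, the spread is taken from the libraries that remain.

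The block called 0 of the 9 genes, 1 pathway gene higher and 0 lower, and 177 and 36 of all genes. Pathway counts were 5 lower with no filter, 1 higher and 1 lower with at least 10 counts in every library, and 11 and 8 with DESeq2 (1390 and 900 of all genes). On log2(TPM + 1) and log2(TPM + 0.1), limma called 0 pathway genes higher and 9 and 7 lower, and of all genes 280 and 267 higher and 1631 and 1486 lower. On those scales the median of all genes was -0.35 and -0.42, against 0.06, so the SMADs turned sign with it. They were -0.42 and -0.44 for Smad2, -0.25 and -0.27 for Smad3, -0.27 and -0.28 for Smad4 and -0.02 and -0.02 for Smad7. Relative to the median they were -0.07 and -0.02, 0.10 and 0.15, 0.08 and 0.14, and 0.33 and 0.39. Tgfb2 was not tested there, nor with at least 10 counts in every library.

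Tgfbr1 turned to 0.15 with the block. With libraries or lines left out, log2 fold changes ran from -1.84 to 0.13 for Tgfb2, -0.51 to 0.72 for Tgfbr1, -0.71 to 0.09 for Tgfbr2, -0.06 to 0.15 for Smad2, -0.42 to 0.59 for Smad3 and -0.11 to 0.18 for Smad4. None of these genes passed in any alternative. At 3 counts, the limit of a count of 0, a library could miss up to 0.223 CPM, which bears on Tgfb2 and Ltbp2.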
